A study of Mus musculus with 6 samples.

Results

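The Kv1 family of voltage-gated potassium channels was followed in mouse dorsal root ganglia, which lie beside the spinal cord and hold the cell bodies of sensory neurons. The members were the rows of the deposited table whose mouse gene identifiers map to the pore subunit genes Kcna1, Kcna2, Kcna3, Kcna4, Kcna5 and Kcna6 and the beta subunit genes Kcnab1 and Kcnab2. These are 8 of the 54532 genes in the table, chosen by name and not by their values, and all 8 passed the filter on low values that left 18410 genes for testing. Gene expression was measured by RNA-seq in 3 libraries of Hdac2 conditional knockout mice (Adv-Cre+/hdac2-flop++, called Hdac2 cKO) and 3 libraries of littermates with the same floxed Hdac2 genotype (hdac2-flop++) but no Cre (called WT). All mice were C57BL/6 and 8 weeks old. Cre recombinase was driven by the promoter of Advillin, a gene of peripheral sensory neurons, so the other cells of the ganglion should keep Hdac2. No group carried Cre without floxed Hdac2, so an effect of Cre itself cannot be told apart from the loss of Hdac2. The title of the series places the question in chronic pain and in Hdac2, a histone deacetylase, of the sensory neurons. The labels do not say whether a library came from 1 mouse or from a pool, and p-values therefore rest on the spread between these libraries, which may be technical.

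Kv1 channels open when the membrane is depolarised and let potassium leave the cell, which opposes firing. A channel is a ring of pore subunits of the same or different kinds, and beta subunits bind to it from the cytoplasm. In sensory neurons Kcna1 and Kcna2 products sit beside the nodes of Ranvier of myelinated axons, under the myelin, and carry a current that dampens repetitive firing. The Kcna4 product forms fast inactivating channels. Kcna3 is best known from lymphocytes and macrophages, and Kcna5 from heart and vascular smooth muscle. The Kcnab1 product speeds inactivation of the channels it binds, and the Kcnab2 product mainly helps their assembly and transport into axons.

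The libraries held 18943595 to 42070531 reads assigned to genes and 24458 to 29181 detected genes. Among counts of 1 to 20, even numbers made up 60.2 to 64.4% in 5 libraries but 42.4% in WT 2, and whether reads or read pairs were counted is stated in no source used here. Read numbers, and the limits drawn from them, are therefore in counted units that may not be single molecules and may not be the same in WT 2. Hdac2 stood at 499, 372 and 535 normalised read counts (reads divided by a size factor per library) in Hdac2 cKO 1, 2 and 3, against 2816, 1715 and 3498 in WT 1, 2 and 3. The groups did not overlap, and the log2 fold change (Hdac2 cKO minus WT) was -2.47 (SE 0.31), but even for this gene limma gave an adjusted p of 0.927, while DESeq2 called it. All 12 pan-neuronal markers, such as Rbfox3 and Tubb3, were detected in every library. WT 3 stood apart: it was the highest or lowest of the 6 libraries for 71% of the 18410 genes tested, against 22.1 to 28.8% for each of the others. The summed level of 10 myelinating Schwann cell markers was 159941 to 229192 in Hdac2 cKO and 363534 to 375589 in WT, and that of 10 skeletal muscle genes 111 to 1301 in Hdac2 cKO and 2713 to 10165 in WT. Their part in the Kv1 values was not tested. In whole ganglia, fewer cells of a type and less RNA per cell cannot be told apart.

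No Kv1 gene was called different between Hdac2 cKO and WT ganglia by limma, edgeR or DESeq2. At an adjusted p of 0.05 limma called 0 of the 8 members, against 0% of all genes tested, and 0 members reached an unadjusted p under 0.05, against 1.85% of all genes (341 of 18410). The groups overlapped for all 8 members, while they did not overlap for 8.54% of all genes tested. On the recovered reads edgeR called 0 members and DESeq2 0 members, with 0 at an unadjusted p under 0.05 by either, and over all genes edgeR called 0 and DESeq2 28 (0.152%). Exact two-sided permutation tests of the single genes gave p from 0.3 to 1.0, where 3 against 3 libraries cannot go below 0.1. The members' count was also 0 in DESeq2 with a replicate block, in limma with array weights and in limma without both libraries numbered 3, which called 0.429%, 3.08% and 0.0272% of all genes. With array weights 5 of the 8 members had an unadjusted p under 0.05 by limma, as did 28.1% of all genes. The members leaned in both directions, 4 higher and 4 lower in Hdac2 cKO, against 10185 higher and 8225 lower of all 18410 genes. Their median log2 fold change was 0.15, against 0.06 over all genes tested. Without WT 3 these medians were 0.17 and -0.01. Every log2 fold change is the Hdac2 cKO mean less the WT mean on log2 (value + 1), a scale on which the values of low genes depend on the added 1, and adjusted p-values are limma's over all genes tested.

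**Figure D1:**
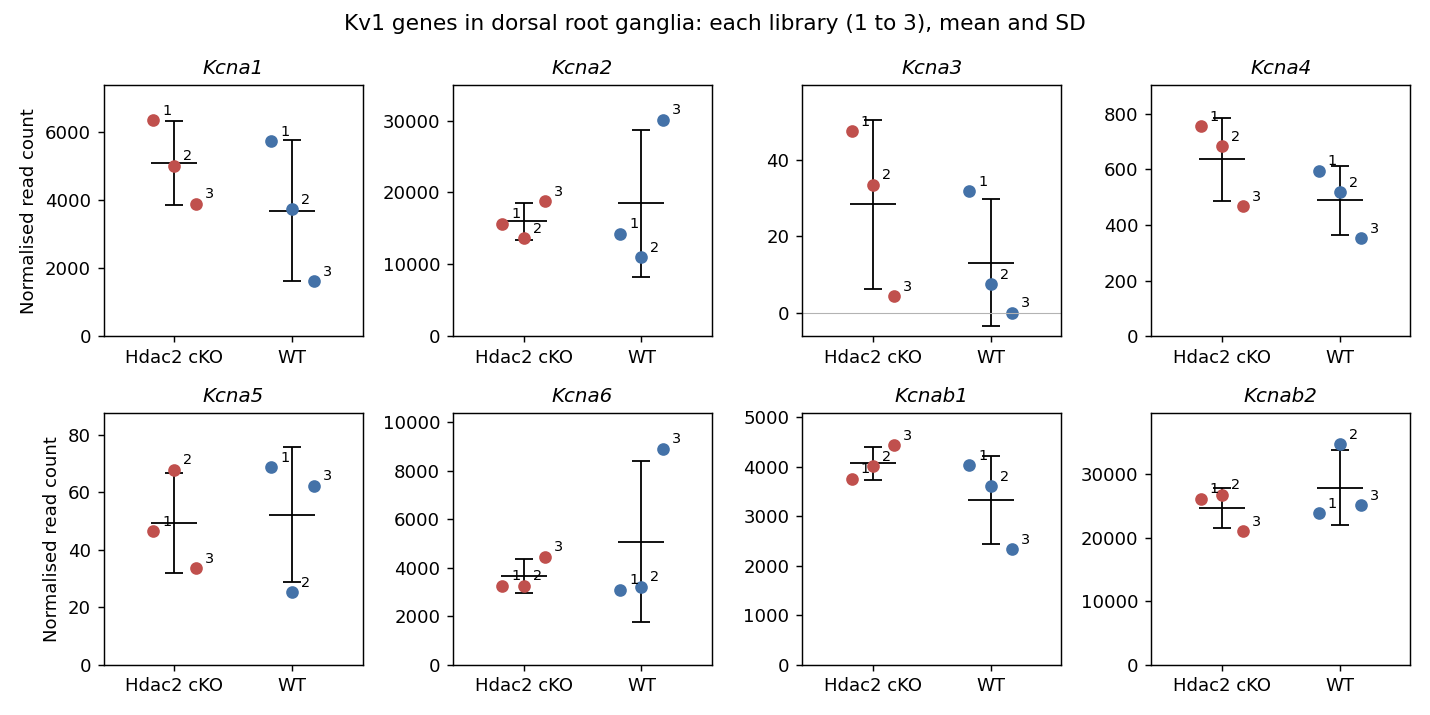
Normalised read counts of the 8 Kv1 genes in each library, with Hdac2 cKO (red) left of WT (blue), numbers marking the library and bars the mean and SD of 3 libraries. The groups overlap in every panel, and WT 3 is the lowest point for Kcna1, Kcna3, Kcna4 and Kcnab1 and the highest for Kcna2 and Kcna6.

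Among the pore subunits, Kcna1 (ENSMUSG00000047976, chr6:126640397-126646384 in mm10, minus strand) had normalised read counts of 6369, 5025 and 3899.9 in Hdac2 cKO 1, 2 and 3, and of 5749, 3736 and 1624 in WT 1, 2 and 3. The lowest value was that of WT 3, and WT 1 lay above both Hdac2 cKO 2 and Hdac2 cKO 3. The means were 5098 ± 1236 in Hdac2 cKO and 3703 ± 2062 in WT (SD, n = 3 each). The log2 fold change was 0.61 (SE 0.46, 95% interval from -0.46 to 1.68; limma adjusted p = 0.927). Without WT 3 it was 0.11, and without WT 1 it was 1.02.

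Kcna2 (ENSMUSG00000040724, chr3:107101146-107115005, plus strand), the usual partner of Kcna1 in axonal channels, stood at 15640.2, 13649 and 18766 in Hdac2 cKO 1, 2 and 3, and at 14297, 11042 and 30108 in WT 1, 2 and 3. Here WT 3 was the highest library and WT 2 the lowest, with the Hdac2 cKO libraries between them. The means were 16018 ± 2579 in Hdac2 cKO and 18483 ± 10199 in WT (SD, n = 3 each). The log2 fold change was -0.08 (SE 0.38, 95% interval from -0.96 to 0.80; limma adjusted p = 0.970). Its direction turned without WT 3, to 0.34, and without Hdac2 cKO 2, to 0.027, and it was -0.39 without WT 2.

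Kcna6 (ENSMUSG00000038077, chr6:126708329-126740674, minus strand), another subunit of neuronal Kv1 channels, stood at 3262, 3261 and 4465 in Hdac2 cKO 1, 2 and 3, and at 3103, 3210.2 and 8913 in WT 1, 2 and 3. Apart from both libraries numbered 3, its values lay within 3103 to 3262. The means were 3663 ± 695 in Hdac2 cKO and 5075 ± 3324 in WT (SD, n = 3 each). The log2 fold change of -0.30 (SE 0.42, 95% interval from -1.29 to 0.69; limma adjusted p = 0.927) turned to 0.20 without WT 3. It was -0.56 without WT 1 and -0.54 without WT 2.

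Kcna4 (ENSMUSG00000042604, chr2:107290639-107298502, plus strand) stood at 755, 684 and 469 in Hdac2 cKO 1, 2 and 3, and at 596, 518 and 353 in WT 1, 2 and 3. Hdac2 cKO 1 and 2 lay above all WT libraries, and Hdac2 cKO 3 lay below WT 1 and WT 2. The log2 fold change was 0.38 (SE 0.30, 95% interval from -0.32 to 1.09; limma adjusted p = 0.927). It was 0.17 without WT 3 and 0.59 without Hdac2 cKO 3.

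The other pore subunits were near the lower end of detection. Kcna3 (ENSMUSG00000047959, chr3:107036169-107038070, plus strand) stood at 47.5, 33.4 and 4.20 in Hdac2 cKO 1, 2 and 3, and at 31.8, 7.44 and 0 in WT 1, 2 and 3. These values rest on 47, 34 and 6 reads in Hdac2 cKO and 36, 5 and 0 reads in WT, and a count of 0 in WT 3 allows a level of up to 3.07 normalised read counts (3 reads, counting error only). Its log2 fold change of 1.66 (SE 1.51) had a 95% interval from -1.87 to 5.19, and was 0.30 without WT 3. It was 1.10 by DESeq2 and 1.07 by edgeR on the recovered reads, and 1.01 with 5 in place of the added 1. Kcna5 (ENSMUSG00000045534, chr6:126532551-126535412, minus strand) stood at 46.5, 67.8 and 33.6 in Hdac2 cKO 1, 2 and 3, and at 68.8, 25.3 and 62.3 in WT 1, 2 and 3, with a log2 fold change of -0.01 (SE 0.57, 95% interval from -1.34 to 1.31). Its direction turned when single libraries were left out, between -0.46 without WT 2 and 0.24 without WT 1.

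Both beta subunits were well measured and varied least. Kcnab2 (ENSMUSG00000028931, chr4:152390742-152477871, minus strand) stood at 26151, 26787 and 21095 in Hdac2 cKO 1, 2 and 3, and at 23913, 34736 and 25152 in WT 1, 2 and 3. Its highest library was 1.65 times its lowest, the smallest range of the 7 members detected in every library. The means were 24678 ± 3119 in Hdac2 cKO and 27934 ± 5924 in WT (SD, n = 3 each). On the log2 scale they differed by -0.17 (SE 0.23; limma adjusted p = 0.927). The 95% interval ran from -0.69 to 0.36, and without WT 2, the highest library, the difference was 0.00086.

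Kcnab1 (ENSMUSG00000027827, chr3:65109384-65378223, plus strand) stood at 3759.5, 4005 and 4431 in Hdac2 cKO 1, 2 and 3, and at 4032, 3609 and 2335 in WT 1, 2 and 3. Only WT 3 lay far from the rest, and WT 1 lay above Hdac2 cKO 1 and 2. The log2 fold change was 0.32 (SE 0.25, 95% interval from -0.26 to 0.91; limma adjusted p = 0.927), and it was 0.09 without WT 3. Like those of Kcna2 and Kcnab2, this interval lies inside 1 log2 unit on both sides, whereas the intervals of the other 5 members reach beyond it on at least 1 side.

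**Figure D2:**
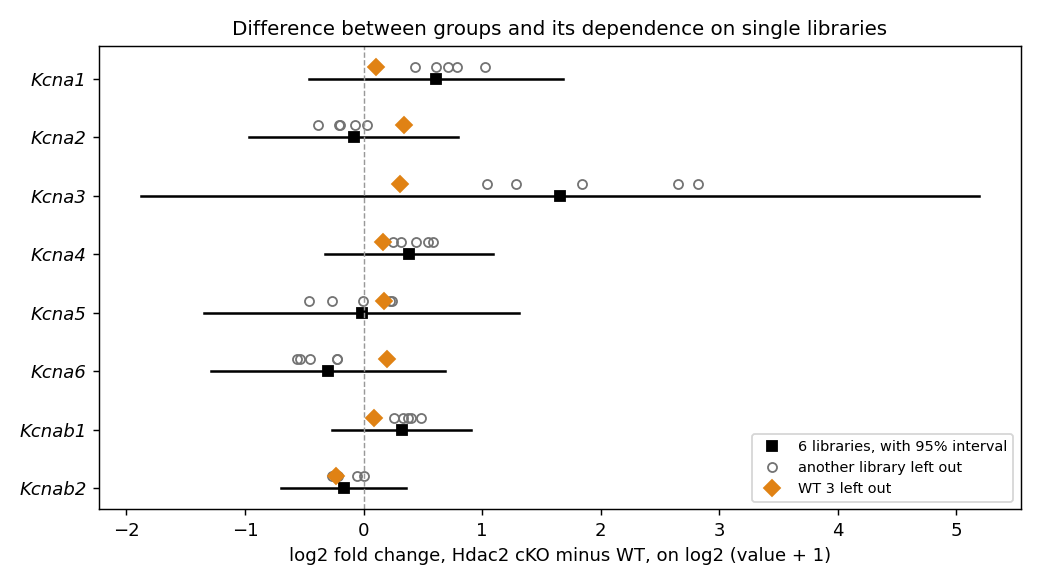
Log2 fold changes (Hdac2 cKO minus WT) of the 8 Kv1 genes with 95% intervals from limma (black), and the same values with 1 library left out (open circles; diamonds without WT 3). Every interval crosses 0, and without WT 3 the values of Kcna1 to Kcna6 and Kcnab1 lie between 0.09 and 0.34, with Kcnab2 at -0.23. The median over all genes tested is -0.01 without WT 3.

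Libraries of the same number in both groups were also set against each other. Across genes, deviations of same-numbered libraries from their group means correlated at 0.40, 0.15 and 0.42 for numbers 1, 2 and 3. Hdac2 cKO 2 correlated more with WT 1 (0.34) than with WT 2 (0.15), so the pairing of number 2 is weak. Kcna1, Kcna3 and Kcna4 were higher in the Hdac2 cKO library of all 3 pairs, as were 18.2% of all genes tested, and 0 members were lower in all 3, against 14.6% of all genes. With the replicate number as a block, Kcna1 was the 1 member of 8 with an unadjusted p under 0.05, at 0.0432 by limma and 0.0255 by DESeq2, against 5.94% of all genes in limma's blocked fit and 7.59% in that of DESeq2. It did not pass over all genes (adjusted p = 0.674 by limma and 0.545 by DESeq2). With a correction for gene length added to limma's blocked fit, the unadjusted p of Kcna1 was 0.0417 (adjusted p = 0.720). The pairing was read from these data and not from the labels.

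Levels of different genes were compared per kilobase of merged exons. Kcnab2 stood highest in all 6 libraries, at 4424 ± 559 per kilobase in Hdac2 cKO and 5008 ± 1062 in WT. Kcna2 (1345 ± 217 in Hdac2 cKO and 1552 ± 857 in WT) and Kcna1 (1067 ± 259 in Hdac2 cKO and 775 ± 431 in WT) followed, and their order changed between libraries. Kcna6 averaged 616 ± 117 in Hdac2 cKO and 854 ± 559 in WT, below Kcna1 in 5 of 6 libraries but above it in WT 3 and in the WT mean. Kcnab1 averaged 473 ± 39.6 in Hdac2 cKO and 387 ± 103 in WT. Kcna4 came below them at 132 ± 30.8 in Hdac2 cKO and 101 ± 25.7 in WT. Kcna5 (17.2 ± 6.04 in Hdac2 cKO and 18.2 ± 8.20 in WT) and Kcna3 (14.9 ± 11.6 in Hdac2 cKO and 6.87 ± 8.73 in WT) were lowest and overlapped (SD, n = 3 each throughout). The places of Kcna6 and Kcnab1 depend on the length used: per kilobase of the longest transcript Kcnab1 averaged 928 ± 77.6 in Hdac2 cKO and 759 ± 202 in WT, and stood above Kcna6 in 5 of 6 libraries.

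The make-up of the pore subunits overlapped between the groups and differed most in the libraries numbered 3. Kcna1 made up 39.3, 35.9 and 25.1% of the summed pore subunit level per kilobase in Hdac2 cKO 1, 2 and 3, and 38.9, 33.0 and 7.61% in WT 1, 2 and 3. In both groups the library numbered 3 held the lowest share. The share of Kcna2 was 38.7, 39.1 and 48.4% in Hdac2 cKO 1, 2 and 3, and 38.9, 39.1 and 56.7% in WT 1, 2 and 3. Kcna6 supplied 16.2, 18.7 and 23.1% in Hdac2 cKO 1, 2 and 3, and 16.9, 22.8 and 33.6% in WT 1, 2 and 3. Per kilobase, the ratio of Kcna1 to Kcna2 was 1.01, 0.917 and 0.518 in Hdac2 cKO 1, 2 and 3, and 1.00, 0.843 and 0.134 in WT 1, 2 and 3. The ratio of Kcna2 to Kcna6 moved less, at 2.39, 2.09 and 2.10 in Hdac2 cKO 1, 2 and 3, and at 2.30, 1.72 and 1.69 in WT 1, 2 and 3. Of the beta subunits, Kcnab2 made up 88.0 to 91.5% in Hdac2 cKO and 90.1 to 94.3% in WT. These shares are given with no test, as they sum over members chosen with results known.

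**Figure D3:**
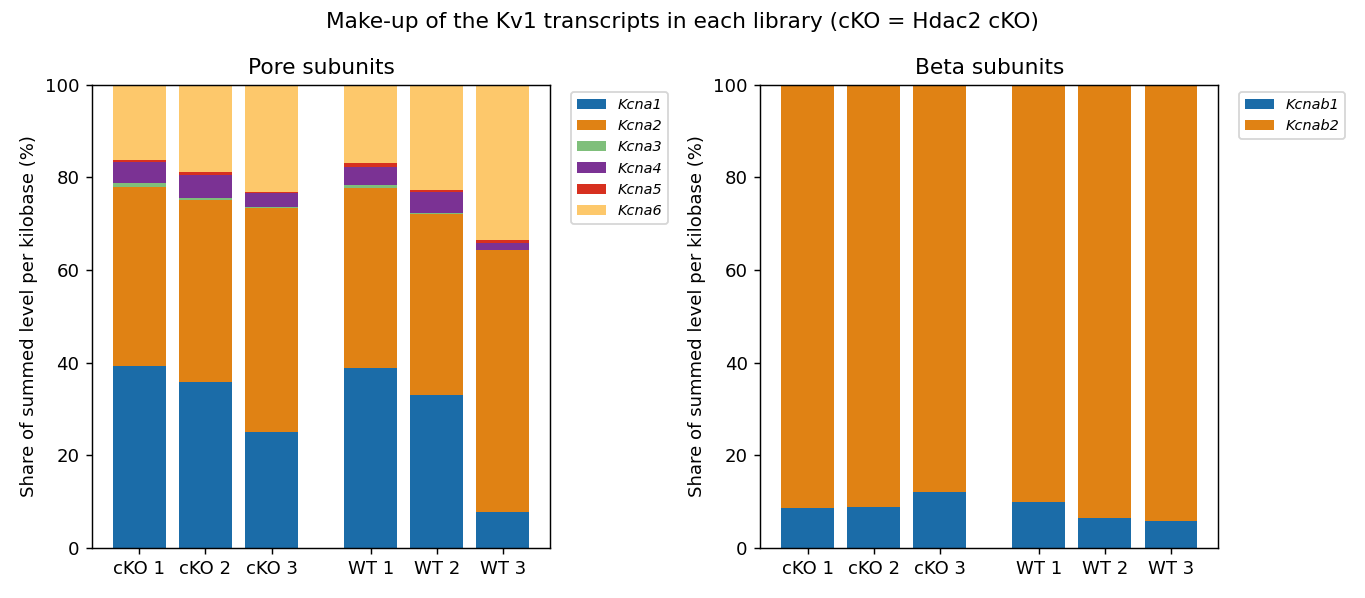
Shares of each gene in the summed level per kilobase of merged exons of the 6 pore subunits (left) and the 2 beta subunits (right), 1 bar per library with Hdac2 cKO left of WT. The Kcna1 share is 25.1% in Hdac2 cKO 3 and 7.61% in WT 3, below the 33.0 to 39.3% of the other libraries.

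Of the 28 pairs of members, Kcna2 and Kcna6 had the most alike profiles across libraries, with a mean absolute difference of 0.17 in log2 (value + 1) centred on each gene's mean over 6 libraries. Kcna2 and Kcna6 were both highest in WT 3 (0.88 and 1.15 above their means), as were 30.5% of all genes tested. Kcna4 and Kcnab1 differed by 0.20, Kcna1 and Kcna4 by 0.25, and Kcna1 and Kcna2 by 0.82. The tested genes nearest to Kcna2 were Luzp1 (0.05), Ikzf2 (0.06) and Imp3 (0.07), and those nearest to Kcna1 were Zfp407, Atp8a2 and Atxn7l1 (0.07 each). Nearest to Kcna3 were Elf4 (0.24), Slamf7 (0.28) and Il18rap (0.31). By the same measure Scai, Jpt2 and Nif3l1 were nearest to Kcna4 (0.05 each), and Metap1 (0.032), Ctu1 (0.035) and Zcchc17 (0.040) to Kcna6. Polq (0.11), Spc25 (0.12) and Bco1 (0.14) were nearest to Kcna5. Among the beta subunits, Gpbp1 (0.020), Sh3glb1 (0.028) and Nvl (0.035) were nearest to Kcnab1, and Sh3bgrl3 (0.043), Pak4 (0.045) and Cfl1 (0.058) to Kcnab2.

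Kcna2 and Kcna6 lie on different chromosomes, each within a row of Kcna genes. On chromosome 3, Kcna3, Kcna2 and Kcna10 lie within 159553 bases, and on chromosome 6, Kcna5, Kcna1 and Kcna6 lie within 208124 bases. Neighbours could differ widely or overlap in level. Kcna2 stood at 927 to 2529 normalised read counts per kilobase where Kcna3 stood at 0 to 25.0, while the adjacent Kcna1 (339.8 to 1332) and Kcna6 (522 to 1499) overlapped. All 6 pore subunit genes hold their coding sequence in 1 exon, whereas the annotated coding sequence falls into 14 blocks in Kcnab1 and 16 in Kcnab2.

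Upstream sequences are shown for the pair with the most alike profiles, Kcna2 and Kcna6, for Kcna3, the low neighbour of Kcna2, and for Kcna4, which had its lowest value in WT 3 where Kcna2 had its highest. RefSeq starts (GRCm38.p6, the assembly of mm10) were found for 7 of the 8 members, with 11 start sites. Each line runs 5′ to 3′ over the 250 bases before the start, with CG dinucleotides in capitals, and for Kcna2 only over the 172 bases outside exons annotated in GENCODE. The Kcna2 stretch lies inside the span that GENCODE gives the gene (chr3:107101146-107115005), so it is upstream only of the RefSeq start.
Kcna2 (chr3:107101395-107101566, plus strand): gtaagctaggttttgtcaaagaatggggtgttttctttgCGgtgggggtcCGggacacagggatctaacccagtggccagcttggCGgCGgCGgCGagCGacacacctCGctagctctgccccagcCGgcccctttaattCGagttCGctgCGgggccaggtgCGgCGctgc
Kcna6 (chr6:126740675-126740924, minus strand): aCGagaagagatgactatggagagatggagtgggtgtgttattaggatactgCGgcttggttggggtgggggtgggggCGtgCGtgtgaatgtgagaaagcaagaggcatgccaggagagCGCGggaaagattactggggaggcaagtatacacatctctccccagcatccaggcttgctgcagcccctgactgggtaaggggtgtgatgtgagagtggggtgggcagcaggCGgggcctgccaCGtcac
Kcna3 (chr3:107035912-107036161, plus strand): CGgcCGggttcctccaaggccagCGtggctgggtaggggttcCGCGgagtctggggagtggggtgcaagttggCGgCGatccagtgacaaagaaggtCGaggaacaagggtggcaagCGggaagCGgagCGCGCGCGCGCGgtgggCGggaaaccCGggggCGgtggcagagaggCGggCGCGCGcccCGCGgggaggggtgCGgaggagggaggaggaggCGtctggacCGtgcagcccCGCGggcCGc
Kcna4 (chr2:107290339-107290588, plus strand): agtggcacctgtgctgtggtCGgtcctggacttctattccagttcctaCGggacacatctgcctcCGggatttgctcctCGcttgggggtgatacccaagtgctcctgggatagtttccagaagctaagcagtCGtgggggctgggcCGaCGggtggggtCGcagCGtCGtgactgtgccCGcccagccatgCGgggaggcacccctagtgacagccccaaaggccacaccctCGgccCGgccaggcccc
Over the full 250 bases, Kcna3 held 31 CG dinucleotides, Kcna2 18, Kcna4 14 and Kcna6 8, against a median of 6 over 32536 upstream windows of mouse genes. The letters GGGCGG, which themselves hold a CG, were searched on both strands and found in Kcna3 and Kcna4 but not in Kcna2 or Kcna6, and in 33.0% of all windows. The letters TATAAA were found on neither strand in any of the 11 windows of the members, and in 12.3% of all windows. Kcna2 and Kcna6, the most alike in profile, had unlike counts of CG, and a match or its lack describes these letters only.

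Kcna3 was set beside markers of immune cells. The summed level of 9 lymphocyte markers was 582, 767 and 162 in Hdac2 cKO 1, 2 and 3, and 671, 225 and 278 in WT 1, 2 and 3. The markers Cd3d, Cd3g and Cd79b were at 0 in at least 1 library. Of 8 macrophage markers the sum was 4488, 3432 and 1792 in Hdac2 cKO 1, 2 and 3, and 3879.7, 2652 and 1738 in WT 1, 2 and 3, and Cd68 was at 0 in WT 3. Both sums and Kcna3 were higher in Hdac2 cKO 1, Hdac2 cKO 2 and WT 1 than in the other libraries. The same split of libraries held for Kcna1 and Kcna4, and for Epb41l3 and Dlg2, whose products bind or cluster Kv1 channels. This split only sorts libraries into high and low. In centred log2 (value + 1), Kcna3 had a mean absolute difference of 1.22 from Kcna1 and 1.41 from Kcna4. That from its nearest gene, Elf4, was 0.24. The part of immune cells in the Kcna3 level was not tested.

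Markers of smooth muscle and of neurons were set beside other members. For Kcna5, the summed level of 7 smooth muscle and pericyte markers was 7674, 10973 and 7256 in Hdac2 cKO 1, 2 and 3, and 11940.1, 8645 and 4688 in WT 1, 2 and 3, and none of these markers was at 0. Kcna5 was likewise low in Hdac2 cKO 3 and high in Hdac2 cKO 2 and WT 1, but it stood at 62.3 in WT 3, where the sum was lowest, and was lowest itself in WT 2, where the sum was 8645. For Kcna1 and Kcna2, the sum of 10 markers of large-diameter neurons was 251802 to 352555 in Hdac2 cKO and 246887 to 340649 in WT. The groups did not overlap for 3 of them, against 8.54% of all genes tested. Limma called 0 and gave 2 an unadjusted p under 0.05, against 1.85% of all genes. DESeq2 with the replicate block called 2, limma with array weights 2 and limma without both libraries numbered 3 called 1. These fits called 0.429%, 3.08% and 0.0272% of all genes. The markers' median log2 fold change was -0.06, or -0.15 without WT 3. Of these 10 markers 4 were highest and 3 lowest in WT 3, against 30.5% and 40.4% of all genes tested. In that library Kcna2 and Kcna6 were highest and Kcna1 lowest. The sum of 10 small-diameter nociceptor markers did not overlap, at 118342 to 131910 in Hdac2 cKO and 106014 to 109241 in WT. Of those 10, 2 did not overlap between the groups, against 8.54% of all genes tested. In Hdac2 cKO 8 were higher and 2 lower, against 10185 and 8225 of all 18410 genes, and limma called 0. Their median log2 fold change was 0.43, or 0.20 without WT 3, against 0.06 and -0.01 over all genes tested. The part of these cell types in the levels of the members was not tested.

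The rest of the family was barely present. Kcna7, known from skeletal muscle and heart, stood at 2.02 to 8.39 in Hdac2 cKO and 0 to 22.1 in WT, and Kcna10 at 0 to 8.08 in Hdac2 cKO and 2.04 to 19.4 in WT. Neither passed the filter on low values. Kcnab3, the remaining beta subunit gene, stood at 46.5, 49.1 and 74.8 in Hdac2 cKO 1, 2 and 3, and at 70.6, 98.3 and 28.6 in WT 1, 2 and 3, and was tested with a log2 fold change of -0.07 (SE 0.56; limma adjusted p = 0.981).

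Proteins that bind, cluster or modulate Kv1 channels were represented by 15 genes, all of which were tested. Of these 0 passed in either direction by limma, edgeR or DESeq2, and 0 had an unadjusted p under 0.05 by any of them. With the replicate block 2 had an unadjusted p under 0.05 by limma and 3 by DESeq2, against 5.94% and 7.59% of all genes. With array weights in limma 7 did, against 28.1% of all genes, and 0 were called in any of these fits. In limma's fit without block or weights, 10 partners were higher and 5 lower in Hdac2 cKO. Their median log2 fold change was 0.02 against 0.06 over all genes tested. The 4 with the largest differences were Epb41l3, whose product anchors the channels beside the paranode (0.69), the LGI receptor gene Adam23 (0.65), the secreted ligand gene Lgi1 (0.63) and the scaffold gene Dlg2 (0.57), each with limma adjusted p = 0.927. Epb41l3 stood at 25483, 22882 and 20290.4 in Hdac2 cKO 1, 2 and 3, and at 22209.9, 20129.6 and 6243 in WT 1, 2 and 3. Its WT 3 value lay far below the others, and without WT 3 the log2 fold changes were 0.11 for Epb41l3, -0.01 for Adam23, 0.31 for Lgi1 and 0.06 for Dlg2.

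The groups did not overlap for 1 of the 15 partners, against 8.54% of all genes tested. This was Cntnap2, named after its values were seen, which encodes the axonal protein that holds Kv1 channels beside the node. Cntnap2 stood at 6317, 6227 and 7074 in Hdac2 cKO 1, 2 and 3, and at 6211, 5377 and 3566 in WT 1, 2 and 3. The gap between the groups was that between 6227 and 6211, and Cntnap2 had a log2 fold change of 0.41 (SE 0.25; limma adjusted p = 0.927), or of 0.18 without WT 3. Of the 15 partners 9 were lowest in WT 3, as were 4 of the 8 members and 40.4% of all genes tested.

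**Figure D4:**
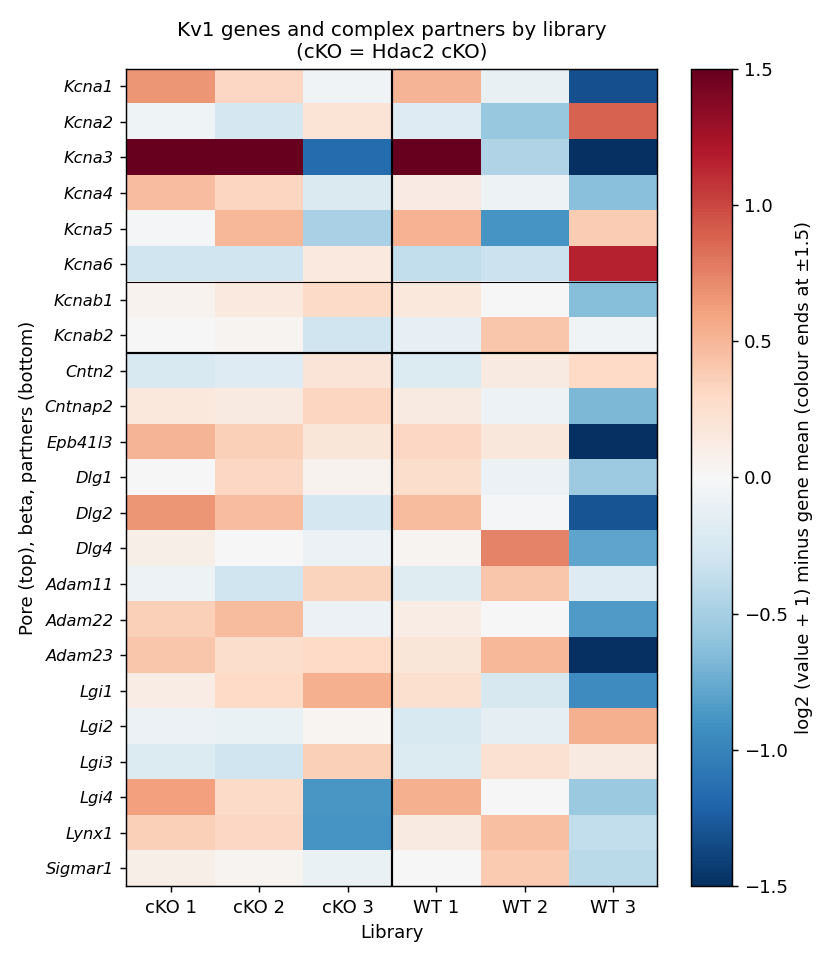
Deviation of log2 (value + 1) from each gene's mean over the 6 libraries (columns, Hdac2 cKO left of WT) for the 6 pore subunits, 2 beta subunits and 15 partner genes (rows), with the colour ending at 1.5 in either direction. In WT 3, Kcna1, Epb41l3, Dlg2 and Adam23 are low (blue) and Kcna2 and Kcna6 high (red), and Kcna3 runs past the colour range in Hdac2 cKO 1, Hdac2 cKO 2, WT 1 and WT 3.

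Some members share sequence with other annotated genes. Kcna6 shares 2355 of its 5945 exon bases with the antisense gene Gm26673, which had 88.5 to 129 normalised read counts in Hdac2 cKO and 101 to 153 in WT. Kcnab1 shares 201 of 8593 exon bases with the antisense gene A330015K06Rik, and Kcnab2 125 of 5578 with Gm16334. No source used here states whether the counting used strand, so reads from shared bases cannot be told apart, and the level of Kcna6 is the most open to this.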

How the data were processed

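RNA-seq was analysed from 3 Hdac2 cKO and 3 WT libraries of mouse dorsal root ganglia. Per the submitters' processing notes, the authors used HISAT2, SAMtools, featureCounts and DESeq2 on mm10, with no settings given in the sources used here. The deposited values are a signal per gene, that is, size-factor normalised read counts. Each library's lowest non-zero value was taken as 1 read, which turned 100% of values into whole reads within 0.01, with totals of 18943595 to 42070531, which were used for edgeR and DESeq2. Intervals for counts cover counting error only. Of 54532 genes, 54495 identifiers matched GENCODE M21, which gave names, lengths and mm10 positions.

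The 18410 genes that reached 10 in 3 or more libraries were tested on log2 (value + 1) with limma 3.58.1 (trend and robust, two-sided, Benjamini-Hochberg adjustment, threshold 0.05) in R 4.3.3. The deposited values are not raw counts, so edgeR 4.0.16 and DESeq2 1.42.0 served as alternatives. The fits of limma, edgeR, DESeq2 and limma-voom on group alone were tried on simulated counts with no outlying library. The blocked, weighted and length-corrected fits were not. Other alternatives were scaling, pseudocounts, filters, gene length, array weights, a replicate block and leaving out libraries. Deviations of same-numbered libraries from their group means correlated across genes at 0.40, 0.15 and 0.42. Hdac2 cKO 2 correlated more with WT 1 (0.34) than with WT 2 (0.15). The numbers were treated as pairs from these data and not from the labels, and the pairing of number 2 is weak.

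The members and lists were chosen with earlier results of these data known. Named genes were all 8 members, called partners or else the 4 with the largest differences, the nearest profiles, at most 2 genes per marker list, Hdac2 and genes overlapping a member.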

Additional observations from a re-analysis of the deposited data

How the results depend on the processing

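None of the 8 Kv1 genes was called under any of 22 alternatives, leaving out each library included. Over all genes limma called 0, also with any 1 library left out (0 to 0), while 341 had an unadjusted p under 0.05. DESeq2 called 28 genes, DESeq2 with a replicate block 79, limma with array weights 567 and limma without both libraries numbered 3 called 5, and the cause was not tested. With limma's replicate block 0 were called. With array weights, which gave WT 3 a weight of 0.101, 5 members had an unadjusted p under 0.05, as did 28.1% of all genes, and the smallest adjusted p of a member was 0.118 (limma). The log2 fold changes of Kcna1, Kcna3, Kcna4 and Kcnab1 kept their direction under every alternative that tested them (a filter at 50 left out Kcna3), at 0.11 to 1.02, 0.30 to 2.82, 0.17 to 0.59 and 0.09 to 0.48 with 1 library left out, and 0.29, 1.30, 0.37 and 0.025 without both libraries numbered 3. Those of the other members did not. With array weights Kcna2 was at 0.33, Kcna5 at 0.91 and Kcna6 at 0.027, and without both libraries numbered 3 they were at 0.22, 0.42 and 0.047. Kcna5 was at 0.031 after correction for gene length, with or without the replicate block. With 1 library left out, Kcna2 ran from -0.39 to 0.34, Kcna5 from -0.46 to 0.24, Kcna6 from -0.56 to 0.20 and Kcnab2 from -0.27 to 0.00086. Dividing by the longest transcript moved 4 of 16 levels and 4 of 16 shares by more than 1 SD, and no length division 12 of 16 shares. Low counts limit Kcna3, which had 0 to 47 reads.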
